A study of Mus musculus with 9 samples.

Results

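Fosl1 and Etv5, both transcription factor genes that respond to fibroblast growth factor (FGF), were followed through 9 RNA-sequencing libraries of cultured mouse satellite cells, the resident stem cells of skeletal muscle. They were taken by gene name, as 2 of the 11148 rows of the deposited expression table. The cells came from limb muscle of pooled male and female C57/BL6/DBA mice aged 1 to 3 days and grew on collagen-coated dishes. Cytokine medium was F10 with 15% serum and 2.5 ng/ml FGF, to which came 5 ng/ml each of IL-1α and IL-13 and 10 ng/ml each of the inflammatory cytokines IFN-γ and TNF-α. T cell medium was an equal mixture of F10 with 15% serum and medium from T cells, also with FGF at 2.5 ng/ml. Both were sampled at the passages P0, P1, P2 and P15, with 1 library for each. F10 medium gave 1 library at P0, and the labels give neither FGF nor serum for it, so a difference in medium and one in FGF or serum cannot be told apart there. Levels are RPKM (read numbers divided by gene length in kilobases and by library depth), averaged over the 2 columns that each library has. The columns are called run 1 and run 2 here as labels only, because what they stand for is not given.

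FGF binds receptor tyrosine kinases at the cell surface, and the signal passes through adaptors, RAS and the kinases RAF and MEK to ERK. ERK phosphorylates transcription factors and raises a set of target genes, some of which limit the pathway again. Fosl1 encodes FRA-1, a FOS-family protein that pairs with JUN proteins to form the AP-1 factor, and its transcription and stability both depend on ERK. Etv5 encodes an ETS factor of the PEA3 group, which is induced by FGF signalling in many developing tissues. In muscle, FGF is known as a mitogen that keeps satellite cells dividing and holds back their differentiation.

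On the mm10 assembly (GENCODE vM21 annotation), Fosl1 (ENSMUSG00000024912) lies on the forward strand at chr19:5447547-5455946 and has 4 exons. The single exon of Ccdc85b, on the reverse strand at chr19:5453180-5457894, covers 1163 of the 2033 Fosl1 exon bases, or 57.2%. These 2033 bases are the exons of all annotated Fosl1 transcripts merged. The shared bases take in all of exons 3 and 4. Exon 3 is shown because it is coding throughout, encodes DNA-contacting residues of FRA-1, and can give reads to either gene. The last 30 bases of exon 2 are in lower case and the 108 bases of exon 3 (chr19:5454413-5454520) in capitals, in the order of the Fosl1 transcript.
Fosl1 exon 2 end and exon 3: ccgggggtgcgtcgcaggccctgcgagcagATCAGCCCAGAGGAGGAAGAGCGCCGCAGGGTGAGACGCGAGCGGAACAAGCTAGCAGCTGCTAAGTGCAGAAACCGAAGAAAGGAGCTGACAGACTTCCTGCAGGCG
The sources used here do not give the strand setting of the authors' counting, and Ccdc85b has no row in the table. The part of Ccdc85b reads in the Fosl1 values was not tested. The steps between Fosl1 values correspond to a gene model of 1707 bases, against 2033 annotated, so the model counted by the authors was not this one exactly.

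**Figure D1:**
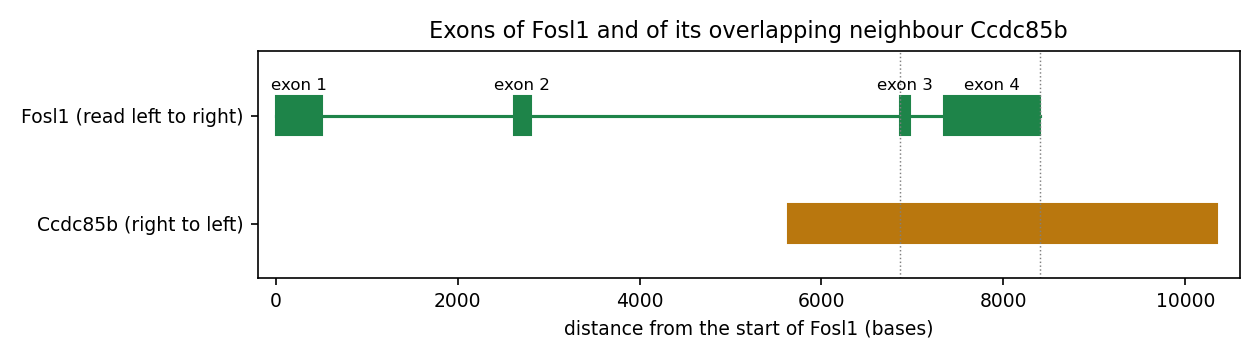
Exons of a single Fosl1 transcript (green, above) and of Ccdc85b (orange, below), placed by distance in bases from the start of Fosl1. The dotted lines bound the stretch from the start of exon 3 to the end of exon 4, which lies within Ccdc85b.

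Etv5 (ENSMUSG00000013089) lies on the reverse strand at chr16:22381309-22439719, with 15 exons after overlapping ones are merged, and no other annotated gene overlaps its exons. The steps between its values correspond to a gene model of 4103 bases, the annotated length. RefSeq (GRCm38.p6) lists 2 promoter windows of 300 bases for it, at starts 1202 bases apart, and these are shown because Etv5 is itself an ETS factor and Fosl1 an AP-1 subunit. Capitals mark matches to the ETS core GGAAGT, the AP-1 site TGANTCA and the CCAAT box, all searched on both strands.
Etv5 window 1, chr16:22439521-22439820, reverse strand: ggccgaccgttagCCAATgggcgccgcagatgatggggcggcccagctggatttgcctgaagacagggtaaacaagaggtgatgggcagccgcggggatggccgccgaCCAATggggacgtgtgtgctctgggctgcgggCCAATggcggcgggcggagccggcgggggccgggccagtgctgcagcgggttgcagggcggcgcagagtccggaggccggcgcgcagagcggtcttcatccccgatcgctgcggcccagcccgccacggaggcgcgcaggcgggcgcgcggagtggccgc
Etv5 window 2, chr16:22438319-22438618, reverse strand: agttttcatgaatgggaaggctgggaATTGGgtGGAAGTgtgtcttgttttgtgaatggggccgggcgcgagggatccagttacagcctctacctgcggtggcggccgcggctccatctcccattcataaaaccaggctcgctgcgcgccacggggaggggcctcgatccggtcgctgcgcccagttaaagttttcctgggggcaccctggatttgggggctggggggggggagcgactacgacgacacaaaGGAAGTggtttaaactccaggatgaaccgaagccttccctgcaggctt
Window 1 held 3 CCAAT matches and no match to the other motifs. Window 2 held 2 GGAAGT matches and 1 CCAAT match, which reads ATTGG on the printed strand. Neither window held TGANTCA. No matches overlapped. Among 32851 mouse windows of this length, 37.4% held CCAAT, 23.8% GGAAGT and 7.81% TGANTCA, and 3.37% held CCAAT at least 3 times. These are matches of letters only.

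Most gene names in the table do not go with their values. The mean of the row named Actb was 0.00264 RPKM, and a fit of row position to annotated exons placed 10253 of 11091 rows more than 2000 bases from their own gene. Fosl1 and Etv5 are among 609 rows (5.46%) whose names could be used. Around Fosl1, 97 of 134 rows in the same stretch reached 1 RPKM, and an offset of 0 fitted better than any over 2000 bases, by 66.9 log-likelihood units. Around Etv5 the figures were 187 of 281 rows and 104.4 units. These figures cover whole stretches, whose bounds were set by the fit itself. Of 30 neighbouring rows for each gene, 23 reached 1 RPKM for Fosl1 and 17 for Etv5. Over these neighbouring rows the same margin was smaller, at 14.77 units for Fosl1 and 5.998 units for Etv5. The name of Etv5 therefore rests mainly on the longer stretch. Estimated run 1 depth was 12.95 to 18.2 M reads. Pearson correlations between libraries were 0.915 to 0.989.

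At each of the 4 passages the Fosl1 level was higher in cytokine medium than in T cell medium. The cytokine libraries had 14.97, 16.31, 21.21 and 24.20 RPKM at P0, P1, P2 and P15. In T cell medium it had 9.21, 12.12, 7.74 and 20.07 RPKM at the same passages, and in F10 medium 14.59 RPKM at P0. The ranges of the 2 media overlapped, because T cell medium at P15 lay above cytokine medium at P0 and P1. Fosl1 averaged 19.2 ± 4.29 RPKM in cytokine medium and 12.3 ± 5.50 RPKM in T cell medium (SD over n = 4 passages each). Its highest level was 3.12 times its lowest.

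The Etv5 level was lower in cytokine medium than in T cell medium at each passage, and its range was narrower. In cytokine medium it had 8.48, 11.79, 10.71 and 10.73 RPKM at P0, P1, P2 and P15. In T cell medium it had 9.32, 15.43, 11.90 and 13.81 RPKM, and in F10 medium 13.13 RPKM at P0. The ranges of the 2 media overlapped. Etv5 averaged 10.4 ± 1.39 RPKM in cytokine medium and 12.6 ± 2.63 RPKM in T cell medium (SD, n = 4 each). Its highest level was 1.82 times its lowest.

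**Figure D2:**
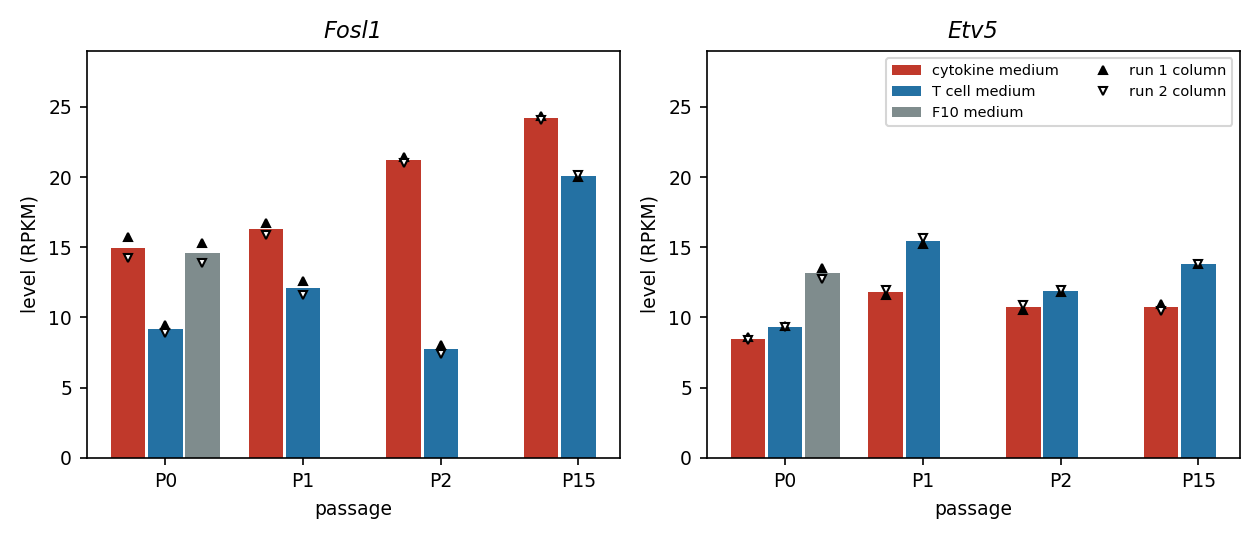
Levels of Fosl1 (left) and Etv5 (right) in RPKM by passage, with bars for the mean of a library's 2 columns and triangles for each column. Fosl1 is higher in cytokine medium (red) than in T cell medium (blue) at each passage, and Etv5 is lower; F10 medium (grey) has P0 alone.

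The size of the Fosl1 difference varied between passages. The run 1 ratio of cytokine to T cell medium was 1.66 at P0, with a 95% exact interval of 1.40 to 1.96. It was 1.33 (1.16 to 1.52) at P1 and 2.66 (2.27 to 3.11) at P2. At P15 it was 1.22 (1.08 to 1.37). All 4 intervals lay above 1, and P2 was the largest. These intervals cover counting error only and rest on approximate read numbers, which for Fosl1 were 217 to 576 in run 1.

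For Etv5 the run 1 ratio of cytokine to T cell medium was 0.920 at P0, with an interval of 0.813 to 1.04 that includes 1. It was 0.760 (0.694 to 0.834) at P1, 0.890 (0.803 to 0.987) at P2 and 0.795 (0.715 to 0.883) at P15, all below 1. Etv5 rested on 514 to 1001 reads per library in run 1.

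**Figure D3:**
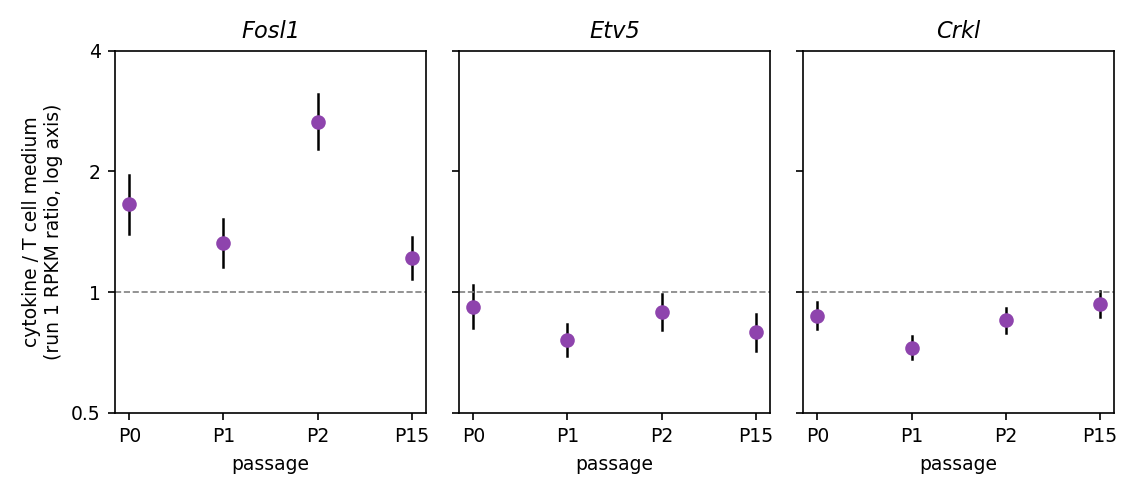
Ratio of cytokine to T cell medium by passage for Fosl1, Etv5 and Crkl, from run 1 RPKM on a log axis, with 95% exact counting intervals as lines and a dashed line at 1. Fosl1 lies above 1 at each passage, while Etv5 lies below it with an interval that includes 1 at P0.

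Taken over the 4 passages, neither difference passed the threshold of 0.05. With limma on log2(RPKM + 1), with passage as a block and Benjamini-Hochberg adjustment over 3686 rows, Fosl1 was 0.66 ± 0.17 higher (SE) in cytokine medium, adjusted p = 0.0559. Etv5 had a difference of -0.24 ± 0.076 (SE), adjusted p = 0.0878. So 0 of 2 members were called, where 9.52% of all rows were; unadjusted limma p was 0.00681 for Fosl1 and 0.0168 for Etv5. Cytokine medium was the higher at 4 of 4 passages for 21.9% of rows, as for Fosl1, and the lower at 4 of 4 for 17.4%, as for Etv5. The median row differed by 0.02. The Fosl1 result passed when P15 was left out (0.80, adjusted p = 0.0312) and when rows had to reach 5 RPKM (adjusted p = 0.0449). Without P2 the difference was 0.43, adjusted p = 0.0885, and its adjusted p ranged over the alternatives between 0.0312 and 0.302. Nothing in the labels says that passages were separate cultures, so p-values measure only the spread between these libraries.

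Of 40 markers of muscle and other cell types, 21 were in the table and 4 had usable names. The defining satellite cell markers, such as Pax7, were not among them, so the labelled cell type was not checked on these. Actn3, a fast-fibre protein of differentiated muscle, had 14.7, 4.79, 11.6 and 8.44 RPKM in cytokine medium, in order of passage, and 86.9, 50.8, 115.5 and 10.5 RPKM in T cell medium, with 30.1 RPKM in F10 medium. It was lower in cytokine medium at each passage, and within T cell medium the library with the most Actn3, P2, had the least Fosl1, and the one with the least Actn3, P15, had the most Fosl1. In cytokine medium the library with the most Actn3, P0, had the least Fosl1, but the one with the least Actn3 was P1, whereas Fosl1 was highest at P15. Stmn2, a neuronal gene, had 0.799 to 38.0 RPKM in cytokine medium and 0.777 to 16.8 RPKM in T cell medium, with P15 the highest in both, as for Fosl1. Fabp4, an adipocyte gene, had 0.645, 2.15, 0.773 and 0.253 RPKM in cytokine medium and 0.613, 0.302, 0.2035 and 0.3115 RPKM in T cell medium, so that it was higher in cytokine medium at P0, P1 and P2 and lower at P15. Adipoq, another adipocyte gene, was at 0 in all 8 libraries of cytokine and T cell medium. The part of cell composition or differentiation in the Fosl1 and Etv5 values was not tested, and in bulk samples fewer cells of a type and less RNA per cell cannot be told apart.

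Fosl1 was at its highest at P15 in each medium. In cytokine medium the run 1 ratio of P15 to P0 was 1.55 (interval 1.36 to 1.77), and in T cell medium 2.11 (1.80 to 2.48). P15 lay above P0, P1 and P2 in both media, which held for 12.9% of rows. The smallest of these P15 ratios was that to P2 in cytokine medium, at 1.136 (1.008 to 1.280). The limma difference of P15 from P0 to P2, with medium as a covariate, was 0.73 ± 0.19 (SE), adjusted p = 0.127, and it did not pass in any of the 20 alternatives, where adjusted p was 0.0701 to 0.608. Early levels in T cell medium had no steady direction, with P2 the lowest.

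Etv5 showed no such P15 maximum. In both media it was highest at P1. The run 1 ratio of P15 to P1 was 0.947 (0.851 to 1.05) in cytokine medium and 0.906 (0.827 to 0.993) in T cell medium. P0 was the lowest passage in both media: the P15 to P0 ratio was 1.27 (1.13 to 1.44) in cytokine medium and 1.47 (1.32 to 1.65) in T cell medium. The limma difference of P15 from P0 to P2 was 0.13 ± 0.18 (SE), adjusted p = 0.736, and without P0 it was -0.02. Thus 0 of 2 members were called at P15, against 0.515% of all rows; unadjusted limma p was 0.00472 for Fosl1 and 0.494 for Etv5.

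The medium difference itself did not pass a test of change at P15. For Fosl1 the per-passage log2 differences were 0.65, 0.40, 1.34 and 0.26 at P0, P1, P2 and P15, and the limma change at P15 was -0.54 ± 0.35 (SE), adjusted p = 0.825. For Etv5 they were -0.12, -0.36, -0.14 and -0.34, and the change was -0.13 ± 0.18 (SE), adjusted p = 0.929. In this test 0.19% of rows were called, all higher. P15 entered as 1 difference, with no replicate of its own.

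At P0, Fosl1 and Etv5 stood differently to F10 medium. The run 1 ratio of cytokine to F10 medium for Fosl1 was 1.03 (0.891 to 1.18), and of T cell to F10 medium 0.620 (0.523 to 0.734). For Etv5 both media were lower than F10, with ratios of 0.637 (0.570 to 0.711) for cytokine medium and 0.692 (0.619 to 0.774) for T cell medium. Both media were lower than F10 at P0 in 36.7% of rows. On the log2(RPKM + 1) scale no member reached a 2-fold difference, which 3.55% of rows did for cytokine medium and 1.93% for T cell medium. These comparisons share 1 F10 library and have no replicate, so no test was made.

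Ordered by level, Fosl1 was lowest in T cell medium at P2, followed by T cell P0, T cell P1, F10 P0, cytokine P0, cytokine P1, T cell P15, cytokine P2 and cytokine P15. Neighbours whose intervals included 1 were T cell P0 with T cell P2, cytokine P0 with F10 P0, cytokine P1 with cytokine P0, and cytokine P2 with T cell P15. Etv5 was lowest in cytokine P0, followed by T cell P0, cytokine P2, cytokine P15, cytokine P1, T cell P2, F10 P0, T cell P15 and T cell P1. Its neighbours with an interval including 1 were T cell P0 with cytokine P0, cytokine P15 with cytokine P2, cytokine P1 with cytokine P15, T cell P2 with cytokine P1, and T cell P15 with F10 P0.

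The ratio of the Fosl1 level to the Etv5 level, both per length, was 1.77, 1.38, 1.98 and 2.26 in cytokine medium at P0, P1, P2 and P15. In T cell medium it was 0.988, 0.786, 0.651 and 1.45, and in F10 medium 1.11. The gene model counted for Fosl1 differed from the annotated one, and the part of Ccdc85b reads in Fosl1 was not tested. Whether a ratio lies above or below 1 is therefore not settled. Cytokine medium had the higher ratio at each passage, which follows from its higher Fosl1 and lower Etv5 levels and is no separate result. The Pearson correlation of Fosl1 and Etv5 on log2(RPKM + 1) was 0.018 over the 9 libraries, which share media, passages and the same cell source.

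**Figure D4:**
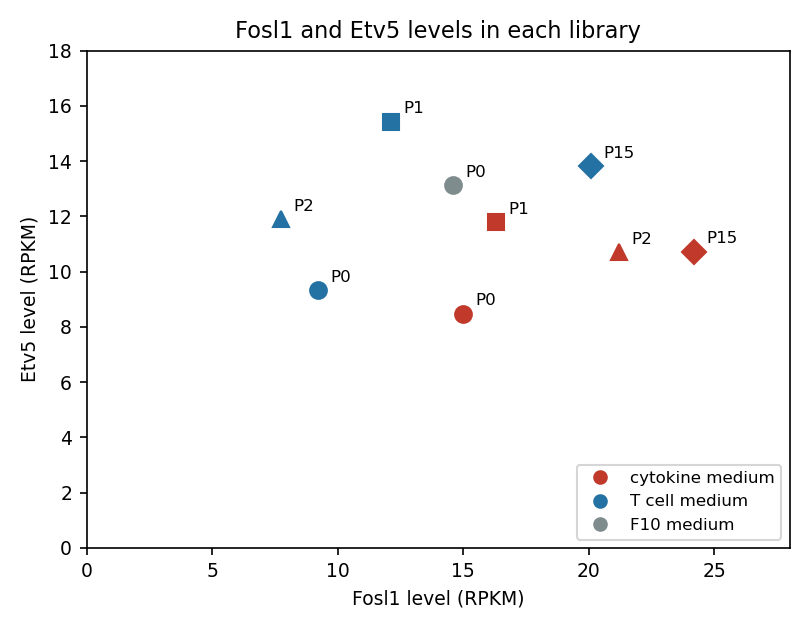
Etv5 level against Fosl1 level in RPKM, with 1 point per library, coloured by medium and labelled by passage. Cytokine libraries lie to the right of the T cell library of the same passage and below it.

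Of the genes around FGF and ERK, 91 were listed, 60 of them were in the table and 5 had usable names, the members included. In the RAS to ERK cascade 1 of 30 genes was usable. Crkl, an adaptor that links activated receptors to downstream exchange factors, had 22.69 to 25.01 RPKM in cytokine medium, 26.38 to 31.48 RPKM in T cell medium and 26.36 RPKM in F10 medium. Its highest level was 1.39 times its lowest. The run 1 ratio of cytokine to T cell medium had intervals below 1 at P0, P1 and P2. At P15 the ratio was 0.934, with an interval of 0.867 to 1.005 that includes 1. The limma difference between the media was -0.24, adjusted p = 0.112.

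The 1 usable gene among 12 ligands and receptors was Fgf12, an intracellular FGF homologue. It reached at most 0.158 RPKM and was not tested. None of the 11 feedback inhibitors, such as the sprouty and dual-specificity phosphatase genes, had a usable name, so this arm of FGF output was not analysed here. Etv5 was the 1 usable gene of 16 ETS factors.

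Among 22 AP-1 and immediate early genes, Batf2 was usable beside Fosl1. Batf2 encodes a BATF-family partner of JUN proteins that is known to be induced by IFN-γ in macrophages. It had 6.97, 16.61, 20.91 and 11.28 RPKM in cytokine medium at P0, P1, P2 and P15. In T cell medium it had 1.62, 3.14, 1.84 and 3.14 RPKM, and in F10 medium 0.03 RPKM. Batf2 was 2.05 ± 0.22 (SE) higher in cytokine medium, limma adjusted p = 0.0121. In this fit 4.75% of rows were called higher and 4.77% lower. Batf2 did not pass without P1 (adjusted p = 0.0888) or with no filter on low values (adjusted p = 0.217). Of the 3 usable list genes other than the members, 2 were tested between the media. Batf2 was called higher in cytokine medium, and Crkl had a negative difference but was not called.

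Among 90 genes with a usable name that varied enough, those whose log2(RPKM + 1) values were most like Fosl1 over the 9 libraries were Sac3d1 (Pearson r = 0.925), Rin1 (0.911), Abcb1b (0.855), Mmp10 (0.821) and Prodh (0.792). Rin1 encodes a RAS effector. It had 14.6, 15.6, 21.5 and 21.3 RPKM in cytokine medium, 10.1, 12.9, 12.4 and 23.2 RPKM in T cell medium and 16.6 RPKM in F10 medium. Its highest T cell library was P15, as for Fosl1. Mmp10, a secreted matrix metalloproteinase, had 3.14, 22.8, 52.0 and 13.7 RPKM in cytokine medium, against 0.185 to 10.3 RPKM in T cell medium. It shared with Fosl1 its lowest library, T cell medium at P2.

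For Etv5 the most alike of 91 genes were Masp1 (r = 0.818), Cpt1a (0.583), Tmem151a (0.542), Pdgfd (0.520) and Rhod (0.503). Masp1, a protease of the lectin pathway of complement, had 14.15, 18.4, 23.1 and 20.3 RPKM in cytokine medium and 15.95, 31.2, 37.0 and 34.6 RPKM in T cell medium, with 26.1 RPKM in F10 medium. Masp1 was lower in cytokine medium at each passage, as Etv5 was, which held for 17.4% of rows. Genes were compared only on usable names, which lie on 8 chromosomes, and these correlations are descriptions. The genes most like Fosl1 or Etv5 were picked by that likeness, so a feature they share with the member is no separate result.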

How the data were processed

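Per the labels' protocols, RNA was extracted with a Qiagen kit and sequenced from TruSeq libraries. The submitters' processing notes name TopHat2 2.0.1, HTSeq 0.5.4p2 and the build mm10. The sources used here do not give the annotation, strand setting or RPKM scaling. The deposited values are RPKM, in 18 columns, 2 per library, per the file headers; what the 2 stand for is not given, and "run" is a label only. RPKM are not counts, so limma 3.58.1 (R 4.3.3, trend) was used on log2(RPKM + 1), which understates changes of low genes, for rows with at least 1 RPKM in 1 library.

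In 6342 of 11148 rows, and in both members, values were whole multiples of what 1 read is worth, within 0.02 of a read; this was not shown for the other rows. The steps gave relative depths (run 2 at 0.917 to 0.927 of run 1) and reads per row. Pairs of columns were compared over 2126 to 2641 of those rows, kept by a minimum read number summed over the pair. Columns of 1 library had a chi-square per row of 0.434 to 0.473, and different libraries 3.53 to 21.4. The 2 columns of a library, closer than sampling noise, were therefore averaged as 1 sample. Rows put the depth of the run 1 column of the F10 library between 11.8 and 14.8 M reads (25th and 75th percentiles). Ratio intervals are 95% exact conditional binomial intervals (Clopper-Pearson) on run 1.

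Row names were checked with GENCODE vM21 by a stepwise offset fit along each chromosome, on a 40 bp grid up to 8 Mb, with a cost of 9 per change. Names were usable in leading segments where an offset of 0 was within 5 log-likelihood units of the best, less the last 3 rows. A cost of 12.9, chosen after seeing the data, kept 614 rows and both members. Scripts were tested on simulated data. Python 3.11.15, numpy 2.4.6, scipy 1.17.1 and pandas 2.3.3 were used.

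The members and gene lists were chosen with earlier results of these data known. Named genes are the members, Ccdc85b, list genes and cell type markers with usable names, Actb as a check of names, and for each member the 5 most alike genes with a range of at least 1 on the log2 scale. Rin1, Mmp10 and Masp1 were picked for their values after these were seen. The counts of listed genes leave out 1 gene that is not reported here.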

Additional observations from a re-analysis of the deposited data

How the results depend on the processing

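Fosl1 kept its direction in cytokine against T cell medium under 14 alternatives. It passed at a filter of 5 RPKM (0.66) and when a passage was left out (0.43 to 0.80) passed without P15 only. Etv5 stayed lower and did not pass in any of 14. For P15 against P0 to P2, leaving out libraries or passages gave 0.46 to 1.00 for Fosl1 and -0.0181 to 0.257 for Etv5, the negative value without P0. Uncalled list genes changed sign there: Crkl at rescaled sums (-0.0693), quantile normalization (-0.00500) and left-out libraries (-0.0829 to 0.125); Batf2 with left-out libraries (-0.24 to 0.40). The cause was not tested.

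Counts of called rows moved by over 1.5 times in part of the alternatives. This was so in 7 of 14 for the media, 9 of 20 for P15 and 9 of 12 for the change at P15. Counts of rows 2-fold from F10 at P0 moved so in 1 of 5 for each medium. The reported fits tested 3686 rows, against 11148 with no filter, 1605 at a filter of 5 RPKM and 451 with usable names alone. Counts at these settings are therefore out of different totals, and a lower count there need not be a lower share. For the media, 351 rows became 0 with no filter (849 higher and 821 lower at unadjusted p under 0.05), 62 with usable names alone, 61 with no passage term and 11 to 576 with a passage left out. For P15, 19 became 2 at a filter of 5 RPKM, 0 with usable names alone and 0 to 33 with libraries left out. For the change at P15, 7 became 0 with no filter, 12 at rescaled sums, 1 with quantile normalization, 2 without trend, 11 with run 1 alone, 0 with usable names alone and 0 to 31 with a passage left out. At P0, rows at least 2-fold from F10 numbered 131 (cytokine) and 71 (T cell); at a pseudocount of 0.1 these were 270 and 179. The labels give no replicate numbers, and passage paired the media in the reported comparison; without it adjusted p was 0.184 for Fosl1 and 0.400 for Etv5. Read numbers limit ratios of single libraries to the intervals given.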
